A study of Mus musculus with 12 samples.

Results

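Nap1l5 is an intronless gene on mouse chromosome 6 that lies on the opposite strand inside an intron of Herc3, and the CG methylation of both genes was examined in 12 libraries. All deposited rows that carry the Ensembl identifier of Nap1l5 (ENSMUSG00000055430) or Herc3 (ENSMUSG00000029804) were taken, in every gene class, together with the CpG islands and island shores that overlap the Herc3 span. This gave 10 features, 4 of Nap1l5 (promoter, exon, CpG island and island shore) and 6 of Herc3 (promoter, 5' UTR, exon, intron, CpG island and island shore), of 176831 features in the series. Each of the 10 had a level in all 12 libraries, so no member was lost to a filter.

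The assay was RRBS (reduced representation bisulfite sequencing), in which DNA is cut at CCGG by the enzyme MspI and unmethylated cytosines are converted before sequencing. All cells came from C57BL6 mice, and each of 6 groups had 2 libraries. Female ESCs are embryonic stem cells from fertilized embryos. Parthenogenetic ESCs (pESCs) come from oocytes activated with strontium and so carry maternal genomes only. E9.5 PGCs and E12.5 PGCs are primordial germ cells that were sorted from female embryos by the surface proteins CD61 and SSEA1, or by SSEA1 alone. ESC-PGCLCs and pESC-PGCLCs are germ cell-like cells made in culture, first as epiblast-like cells with bFGF and Activin A and then with BMP4, SCF, EGF and LIF, and were sorted as CD61 and SSEA1 double-positive cells. The study's stem cells carry an Actin-GFP transgene and were kept on feeder cells, and the number of lines behind these libraries is not given in the sources used here. A library is a pool of cells, so partly methylated copies and a mixture of methylated and unmethylated cells cannot be told apart.

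Nap1l5 belongs to the nucleosome assembly protein 1-like family and arose by retrotransposition. It is an imprinted gene, expressed from the paternal copy, and its CpG island acquires methylation in the oocyte. Herc3 encodes an E3 ubiquitin ligase with a HECT domain. Marks of this kind are kept in somatic and stem cells with the help of the zinc finger protein ZFP57, which binds methylated TGCCGC, and are erased in primordial germ cells. In cells with maternal genomes only, both copies of such a gene derive from an oocyte.

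Herc3 spans chr6:58831465-58920398 on the plus strand (GRCm38, GENCODE M21), and Nap1l5 spans chr6:58905233-58907076 on the minus strand. Nap1l5 lies in intron 22 of the 25-exon transcript Herc3-202, an intron of 21787 bases at chr6:58894625-58916411. The RefSeq start of Nap1l5 lies at position 58907126, which is 75661 bases from the first Herc3 start. The Nap1l5 CpG island, at chr6:58906724-58907147, has 424 bases, 43 CpGs and 2 MspI sites, and it covers 244 bases of coding sequence with 26 CpGs, 159 bases of 5' UTR with 11 CpGs and 21 bases upstream of the RefSeq start with 6 CpGs. Its shore, at chr6:58904722-58906722, runs over most of the Nap1l5 body and has 27 CpGs and 1 MspI site in 2001 bases. The Herc3 CpG island, at chr6:58831308-58832000, has 693 bases, 83 CpGs and 7 MspI sites, and its shore, at chr6:58832000-58834001, has 25 CpGs and 3 MspI sites. A short noncoding transcript of Herc3 starts at 58907262, 115 bases beyond the Nap1l5 island.

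To show the CpGs and the ZFP57 motif at the start of Nap1l5, a pair of stretches is printed, the bases before its start and the coding part of the Nap1l5 island, which holds both of the island's MspI sites. They are in lower case, 5' to 3' on the strand of the gene, and the capitals mark TGCCGC, searched on both strands (as GCGGCA on the other). The first comes from RefSeq (GRCm38, chr6:58907127-58907376, minus strand, 250 bases, 10 CpGs) and the second from the genome (chr6:58906724-58906967, minus strand, 244 bases, 26 CpGs).
Nap1l5 upstream: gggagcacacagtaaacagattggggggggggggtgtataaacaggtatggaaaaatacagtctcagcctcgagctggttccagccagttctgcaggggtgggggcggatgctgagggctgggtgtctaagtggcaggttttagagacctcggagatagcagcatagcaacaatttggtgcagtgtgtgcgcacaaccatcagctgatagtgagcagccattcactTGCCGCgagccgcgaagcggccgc
Nap1l5 coding island: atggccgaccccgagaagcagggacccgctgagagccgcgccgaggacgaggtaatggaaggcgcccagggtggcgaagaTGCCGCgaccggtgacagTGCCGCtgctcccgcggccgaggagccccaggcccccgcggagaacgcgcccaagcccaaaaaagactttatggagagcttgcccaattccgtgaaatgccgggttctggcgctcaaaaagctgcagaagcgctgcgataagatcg

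The Nap1l5 upstream stretch holds the motif at 1 place, which crosses the edge of the island, and its coding island stretch at 2. The whole Nap1l5 island held it 4 times, without the upstream place and including places not printed in full. The longer Herc3 island held the motif 2 times. Windows of 424 bases from the 10260 islands of at least that length held it in 43.8%, and held 4 or more in 0.848%. For windows of 693 bases from 5884 islands these shares were 59.8% for any and 25.8% for 2 or more. Of 32851 RefSeq upstream windows of 250 bases, 8.68% held the motif. A match is a run of letters and not a measured binding site.

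The read depth behind the levels is unknown, since the files hold levels only, so no interval was computed for single values. The libraries held between 144375 (ESC-PGCLC replicate 2) and 166476 (pESC replicate 1) features, and replicates had the same value at 0.117 to 0.256% of common features. The mean over the 18456 promoters common to all libraries was highest in E9.5 PGCs, at 23.9 and 23.7%, and lay between 12.7% (ESC replicate 2) and 18.9% (ESC-PGCLC replicate 1) in the others. Levels of 7 germline promoters, markers that lose methylation in late germ cells, were lower in E12.5 than in E9.5 PGCs at 7 of 7. Of these, 6 were called (limma adjusted p under 0.05 and at least 10 points), at a background of 49.6% of all features called lower. Brdt, also listed, lacked levels in some germ cell libraries. Dazl, an RNA-binding protein of germ cells, had 65.8% in E9.5 and 44.7% in E12.5 PGCs. The labels do not say whether the 2 libraries of a group came from separate cultures or embryos, and the study describes its RRBS analysis as of biological replicates. The p-values measure the spread between these libraries only.

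The Nap1l5 promoter had 56.3 and 54.8% in pESCs against 22.6 and 25.98% in ESCs (replicates 1 and 2). It had 32.2 and 41.0% in E12.5 PGCs against 60.3 and 60.7% in E9.5 PGCs, and 48.7 and 46.3% in pESC-PGCLCs against 47.6 and 44.0% in ESC-PGCLCs. The means were 24.3 ± 2.36% (SD, n = 2) in ESCs, 36.6 ± 6.21% in E12.5 PGCs, 45.8 ± 2.58% in ESC-PGCLCs, 47.5 ± 1.64% in pESC-PGCLCs, 55.6 ± 1.04% in pESCs and 60.5 ± 0.294% in E9.5 PGCs. In this order of groups the libraries of neighbours did not overlap, except that those of both PGCLC groups did. The smallest gap between other neighbours was 2.98 points, between E12.5 PGC replicate 2 and ESC-PGCLC replicate 2. E12.5 PGC replicate 1 was below replicate 2 at all 4 Nap1l5 features, and this was the widest replicate gap at each.

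**Figure D1:**
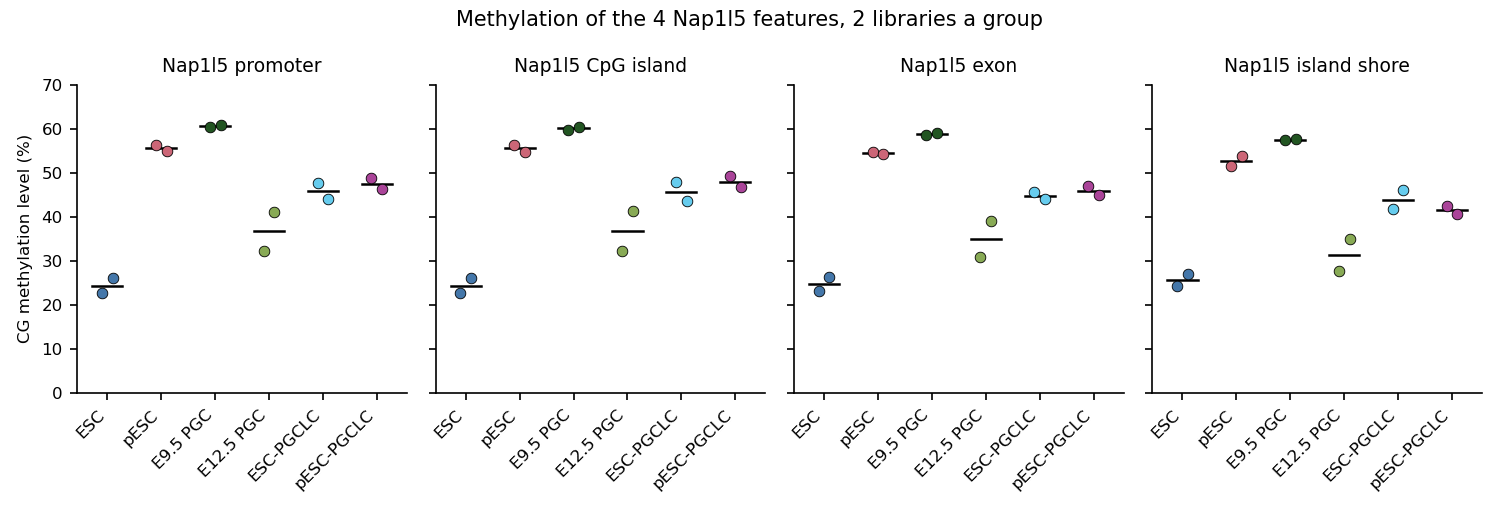
CG methylation level in percent (vertical axis) of the 4 Nap1l5 features in the 6 groups (horizontal axis); each point is 1 library and each bar the mean of 2. ESCs are lowest and E9.5 PGCs highest in all 4 panels, with promoter means of 24.3% and 60.5%.

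The other Nap1l5 features gave nearly the same levels as the promoter. The exon shares bases with both the island and the shore, and the bases of the promoter row are not given, so the features are not treated as independent measurements. The island differed from the promoter by -0.586 to 0.476 points over the 12 libraries, and the exon by -2.06 to 0.490 points. Island means were 55.5% in pESCs against 24.3% in ESCs, 36.8% in E12.5 PGCs against 60.04% in E9.5 PGCs, and 47.9% in pESC-PGCLCs against 45.6% in ESC-PGCLCs. The shore, with its lower CpG density, had means of 52.6, 25.6, 31.2, 57.5, 41.5 and 43.8% in the same order of groups. It was below the island in 9 of 12 libraries, with island less shore ranging from -2.49 to 6.70 points.

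The Herc3 island showed another picture. Its level lay between 1.22% (pESC replicate 1) and 2.18% (E9.5 PGC replicate 2) in the 12 libraries, with means of 1.64% in pESCs against 1.69% in ESCs, 2.11% in E12.5 PGCs against 2.08% in E9.5 PGCs, and 1.52% in pESC-PGCLCs against 1.82% in ESC-PGCLCs. The Nap1l5 island, further along the same gene, exceeded it by 21.3 to 58.2 points in 12 of 12 libraries. The Herc3 5' UTR (means 1.46 to 2.61%) and the Herc3 shore (means 1.67 to 3.80%) were as low. The shore was highest in E12.5 PGCs, at 3.59 and 4.02%, against 2.42 and 2.37% in E9.5 PGCs, and this rise of 1.41 points passed limma at adjusted p = 0.00737 but not the 10 points asked of a call.

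**Figure D2:**
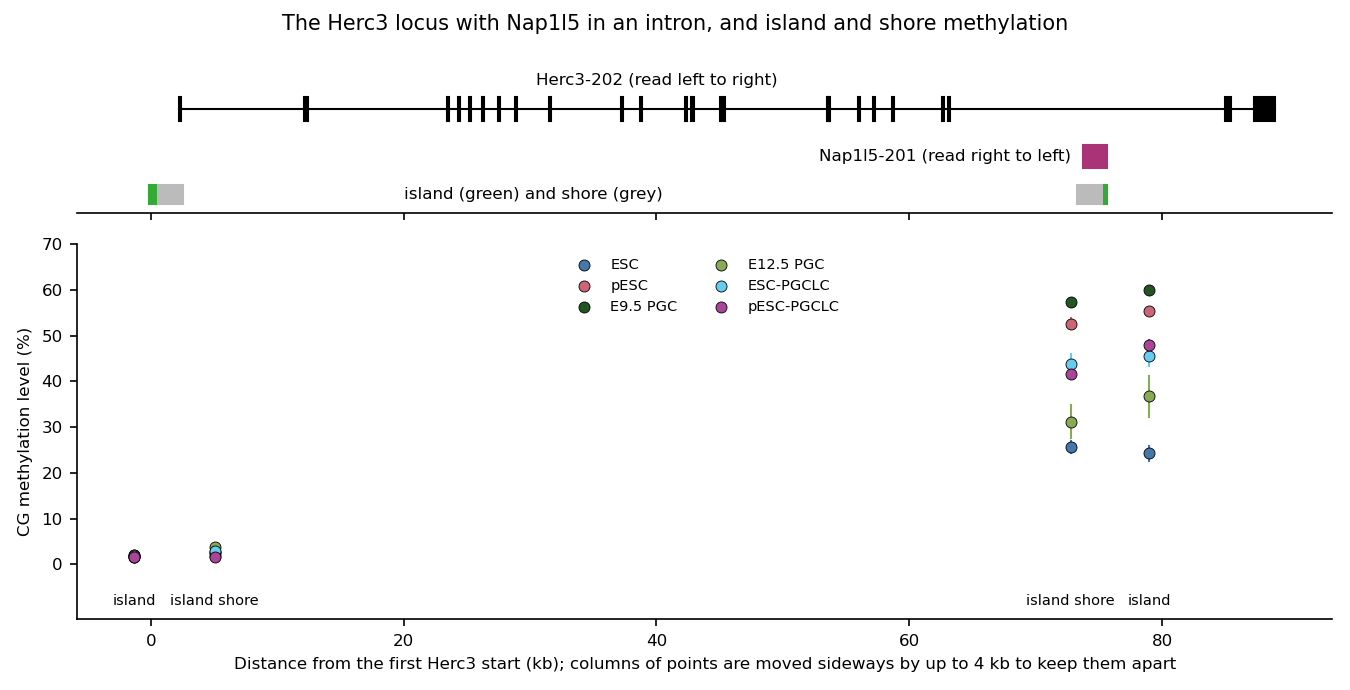
Upper panel, the exons of Herc3-202 (black, short ones widened to be visible), Nap1l5 (purple), CpG islands (green) and shores (grey) by distance from the first Herc3 start in kb. Lower panel, methylation in percent at each island and shore, with points for group means and lines for the range of 2 libraries: all Herc3 values stay under 5%, and Nap1l5 values spread from 22.6 to 60.3%.

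The Herc3 promoter row was higher than its island in 12 of 12 libraries, by 4.25 to 17.5 points. It had 12.2 and 16.0% in pESCs against 5.75 and 6.29% in ESCs, and 8.05 and 11.5% in E12.5 PGCs against 16.3 and 19.7% in E9.5 PGCs. The pESC-PGCLCs had 12.1 and 12.6% and the ESC-PGCLCs 12.6 and 12.5%. The groups thus fell in nearly the order seen at Nap1l5, with ESCs lowest and E9.5 PGCs highest. The Nap1l5 promoter was 3.09 to 4.63 times as methylated as the Herc3 promoter in every library. The authors' promoter definition is not given in the sources used here, and 1 value per gene may pool several starts. The short Herc3 transcript starts beside the Nap1l5 island, so bases of that region may enter the Herc3 row, and their part in its level was not tested.

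Herc3 exons had 17.8 and 24.0% in E9.5 PGCs, against 13.6 and 8.56% in ESCs and 9.75 and 13.7% in pESCs. In the remaining 3 groups they lay between 9.70 and 14.5%, so that E9.5 PGCs stood above every other group without overlap. Herc3 introns had 23.4 and 27.4% in pESCs against 20.2 and 21.0% in ESCs, and 22.6 and 25.9% in E12.5 PGCs against 40.7 and 38.7% in E9.5 PGCs. The pESC-PGCLCs had 26.7 and 28.1% and the ESC-PGCLCs 27.6 and 27.8%. E9.5 PGCs were again above all others, and ESCs below all others. The intron row was below the mean of all common introns of its library in 11 of 12 libraries, with differences from -8.75 to 1.24 points.

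**Figure D3:**
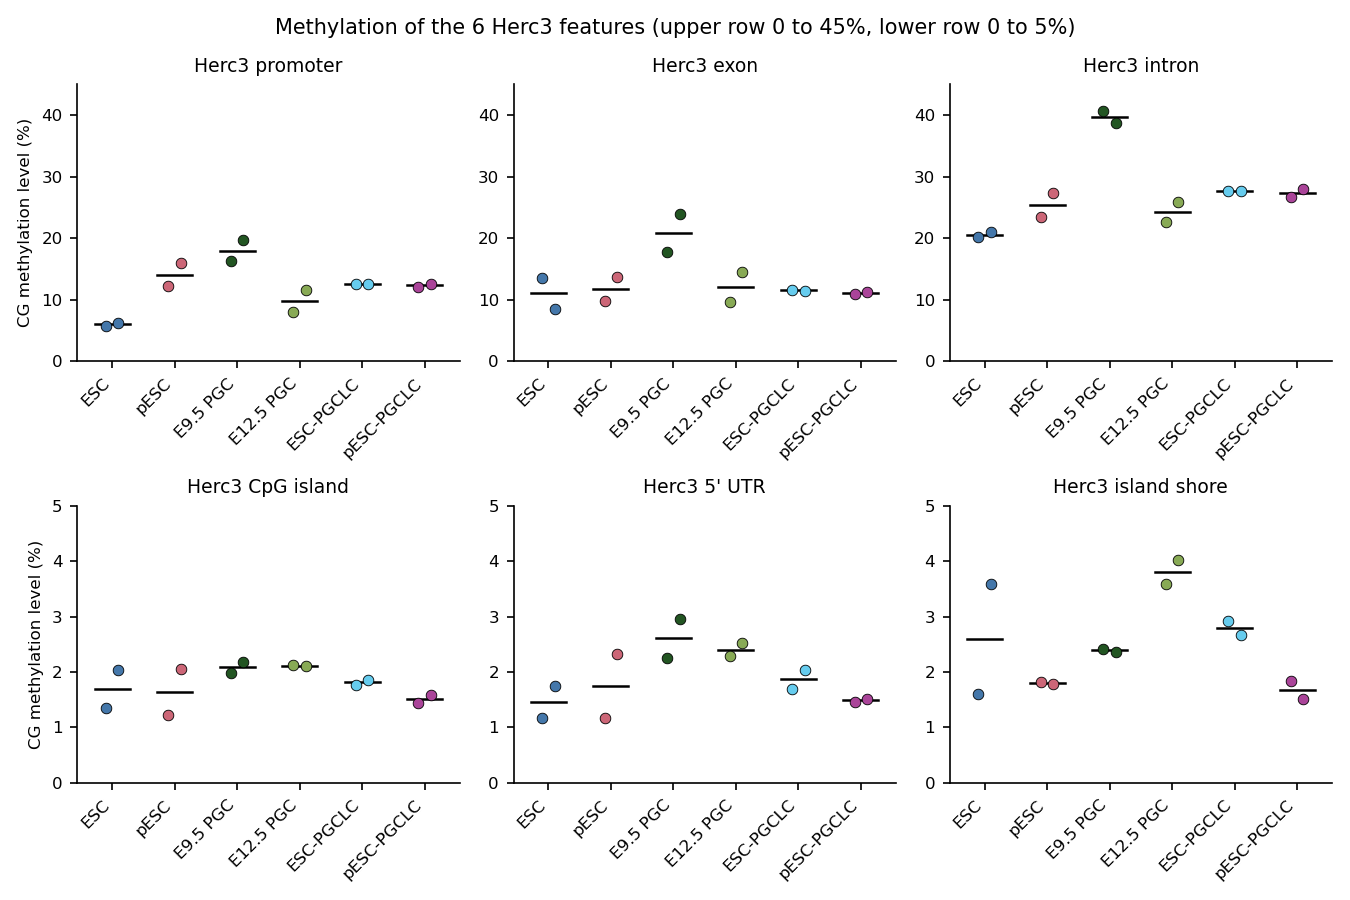
CG methylation level in percent (vertical axis) of the 6 Herc3 features by group (horizontal axis); each point is 1 library and each bar the mean of 2, with an axis to 45% above and to 5% below. E9.5 PGCs are highest for promoter, exon and intron, and the island stays between 1.22 and 2.18%.

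pESCs were compared with ESCs to see what the absence of a paternal genome goes with at the locus. Nap1l5 was higher in pESCs at all 4 features, by 31.3 points at the promoter, 31.2 at the island, 29.7 at the exon and 27.0 at the shore. The pESC promoter mean was 2.29 times that of ESCs, and the nearest libraries were 28.8 points apart. Only 13 of 19766 promoters, Nap1l5 included, differed by as much in this direction, and the median over all promoters was 0.026 points. At Herc3 the promoter was 8.06 points higher in pESCs without overlap, the intron 4.84 and the exon 0.690 points, and the difference at the island was -0.0546 points.

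In the limma fit of the 4 stem cell libraries the Nap1l5 promoter difference was 1.92 ± 0.32 (SE) on the log2 odds scale (adjusted p = 0.873 by limma). None of the 10 features was called by limma, at a background of 0% of all 148012 features, and 5 of the 10 had an unadjusted p under 0.05. A call here meant an adjusted p under 0.05 and at least 10 points between group means. Backgrounds, here and below, are shares of calls. Counts at an unadjusted p under 0.05 have no such share beside them and are not read as an excess. When the spread was estimated from all 12 libraries in 1 limma fit, the same difference had an adjusted p of 0.0137 and 4 features were called, all of Nap1l5, among 70 in the series. The exact permutation p was 0.333, the smallest that 2 libraries against 2 allow, here and in each later comparison whose libraries do not overlap.

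E12.5 PGCs were compared with E9.5 PGCs because imprints are erased over this period. Nap1l5 was lower at E12.5 at all 4 features, falling by 23.9 points at the promoter, 23.3 at the island, 23.9 at the exon and 26.3 at the shore. At E12.5 the promoter retained 0.605 of its E9.5 level. The Herc3 intron fell by 15.5 points (adjusted p = 0.000537 by limma). The Herc3 promoter and exon differed by -8.18 and -8.77 points, with adjusted p of 0.00603 and 0.0211 by limma but less than 10 points, and the Herc3 island was 0.0322 points higher.

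Thus 5 of 10 features were called lower, at a background of 49.6% of 137202 features, so the share was near that of the series. The promoter difference was -1.38 ± 0.19 on the log2 odds scale (adjusted p = 0.00101 by limma), beside a median of -0.86 over all features. Of the 18794 promoters tested, 14.1% fell by as much or more. With each library centred on its own median, the Nap1l5 promoter difference was -7.90 points and no longer called (adjusted p = 0.235 by limma), and the Herc3 promoter, 5' UTR, exon and intron turned in sign (7.80, 15.8, 7.22 and 0.535 points). None of the 5 calls was kept, and the Herc3 island (16.02 points), 5' UTR and shore (17.4) were called higher instead. The share of all calls that were lower went from 99.9% to 27.2%. Centring, here and below, shifts every feature of a comparison by the same number of points, that of the library medians. Before centring, the Herc3 island was 0.0322 points higher.

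PGCLCs were compared with E9.5 PGCs to place the cultured cells beside early germ cells. In ESC-PGCLCs Nap1l5 was lower, with differences of -14.7 points at the promoter, -14.4 at the island, -14.0 at the exon and -13.7 at the shore, and the Herc3 intron differed by -12.04 points. In pESC-PGCLCs the same 5 features were lower, with differences of -13.02, -12.1, -12.9, -15.96 and -12.4 points. Both comparisons use the same E9.5 libraries. All 5 were called in each, with adjusted p for the Nap1l5 promoter of 0.0143 and 0.0180 by limma, at backgrounds of 29.6% (ESC-PGCLCs) and 40.2% (pESC-PGCLCs) of all features called lower. The Herc3 exon differed by -9.35 and -9.80 points (adjusted p = 0.0243 and 0.0156 by limma). The Herc3 promoter differed by -5.44 and -5.67 points (0.0608 and 0.0452) and the Herc3 island by -0.266 and -0.565 points (0.321 and 0.0382). All of these were under 10 points and so were not called.

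Adjusting p-values within each feature class ended the call of the Nap1l5 island in both comparisons (adjusted p = 0.0811 and 0.121 by limma) and kept the other 4. The Nap1l5 promoter calls depended on single libraries. Without E9.5 PGC replicate 1, E9.5 PGC replicate 2 or ESC-PGCLC replicate 2, the ESC-PGCLC difference was -14.9, -14.5 or -12.9 points with adjusted p of 0.0582, 0.0624 and 0.0750 by limma, and 2, 1 and 2 features were called. For pESC-PGCLCs, leaving out either E9.5 replicate gave -13.2 and -12.8 points (adjusted p = 0.0657 and 0.0717 by limma) with 3 and 2 features called, and leaving out either pESC-PGCLC replicate gave -14.2 and -11.9 points (0.0526 and 0.0886) with 3 and 2 called. Centring each library on its median gave -4.59 and -0.969 points (adjusted p = 0.451 and 0.809 by limma). None of the 5 calls was kept in either comparison, the Herc3 shore was called higher (10.5 and 11.3 points) and in pESC-PGCLCs so was the Herc3 island (11.5), and the shares of all calls that were lower moved from 99.4 to 20.6% and from 99.7 to 23.7%. The median over all features was -0.44 and -0.60 on the log2 odds scale, beside -0.84 and -0.75 for the Nap1l5 promoter.

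Against E12.5 PGCs the PGCLCs were higher at Nap1l5. The promoter was 9.19 points higher in ESC-PGCLCs and 10.9 points higher in pESC-PGCLCs, and in both the libraries were separated from those of E12.5 PGCs. Neither difference was called (adjusted p = 0.0735 and 0.0794 by limma). In ESC-PGCLCs 1 of 10 features was called, the Nap1l5 shore at 12.6 points (adjusted p = 0.0204 by limma), against a background of 22.2% called higher, and 5 had an unadjusted p under 0.05. That call was lost without E12.5 PGC replicate 1 (8.98 points, adjusted p = 0.0641 by limma) or ESC-PGCLC replicate 2 (10.5 points, 0.0983), whereas without E12.5 PGC replicate 2 the promoter was 13.6 points higher (0.0221) and 4 features were called. In pESC-PGCLCs none of the 10 was called by limma at a background of 7.1%, with 7 at an unadjusted p under 0.05. Among those 7 the Herc3 shore differed by -2.13 points (adjusted p = 0.0157 by limma, under 10 points). Centring on library medians moved the share of all calls that were lower from 2.30 to 23.0% for ESC-PGCLCs, where none of the 10 was then called by limma, and from 4.05 to 32.9% for pESC-PGCLCs.

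The PGCLC groups were then set against each other. Nap1l5 was 1.68 points higher in pESC-PGCLCs at the promoter, 2.32 at the island and 1.13 at the exon, while the shore differed by -2.27 points, and the promoter libraries overlapped (exact permutation p = 0.667). None of the 10 features was called by limma, at a background of 0.0948%, and 1 had an unadjusted p under 0.05, the Herc3 shore at -1.12 points. The promoter difference was 0.10 ± 0.19 on the log2 odds scale. Of the calls in the series 53.1% were lower in pESC-PGCLCs, and 27.2% after centring. The 31.3 points that separated pESCs from ESCs were thus not seen between the cells induced from them, and the test of that change follows.

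Induction was compared with the stem cells it began from. From ESCs to ESC-PGCLCs the Nap1l5 promoter rose by 21.5 points, the island by 21.3, the exon by 20.05 and the shore by 18.2. These 4 of 10 features were called higher, at a background of 13.7%, and the promoter had an adjusted p of 0.00366 by limma. The Herc3 promoter was 6.52 points higher (adjusted p = 0.0150 by limma, under 10 points) and the Herc3 island 0.125 points higher. Leaving out ESC-PGCLC replicate 2 ended the shore call (16.1 points, adjusted p = 0.0833 by limma). With libraries centred on their medians the promoter difference was 8.74 points and not called (adjusted p = 0.467 by limma), and the Herc3 island, 5' UTR, shore and exon turned to -12.6, -12.3, -12.6 and -12.3 points and were called lower, so that none of the 4 original calls was kept, while 90.0% of all calls were lower against 6.17% without centring.

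From pESCs to pESC-PGCLCs the Nap1l5 promoter differed by -8.07 points, the island by -7.56, the exon by -8.54 and the shore by -11.1 points, all lower after induction. The libraries did not overlap at any of the 4, but none of the 10 features was called by limma at a background of 9.66%, and 2 had an unadjusted p under 0.05. The adjusted p of the promoter was 0.252 by limma. After centring on library medians the promoter difference was -18.1 points with an adjusted p of 0.00674 by limma. With centring 9 of the 10 features were called lower, among them the Herc3 island (-10.2 points), 5' UTR (-10.3) and shore (-10.2). Before centring the Herc3 island differed by -0.120 points. The share of lower calls in the series went from 7.72 to 87.0%.

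The changes on induction therefore had opposite signs, and their difference at the Nap1l5 promoter was -29.6 points. In the limma test of the interaction this was -1.82 ± 0.29 on the log2 odds scale (adjusted p = 0.341 by limma). None of the 10 features was called, at a background of 0.0365%, and 5 had an unadjusted p under 0.05. Of 18812 promoters, 13 had an interaction as low or lower. The Herc3 promoter had an interaction of -8.28 points and the Herc3 island of -0.245 points. This contrast uses the same ESC and pESC libraries as the stem cell comparison and is not independent of it.

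**Figure D4:**
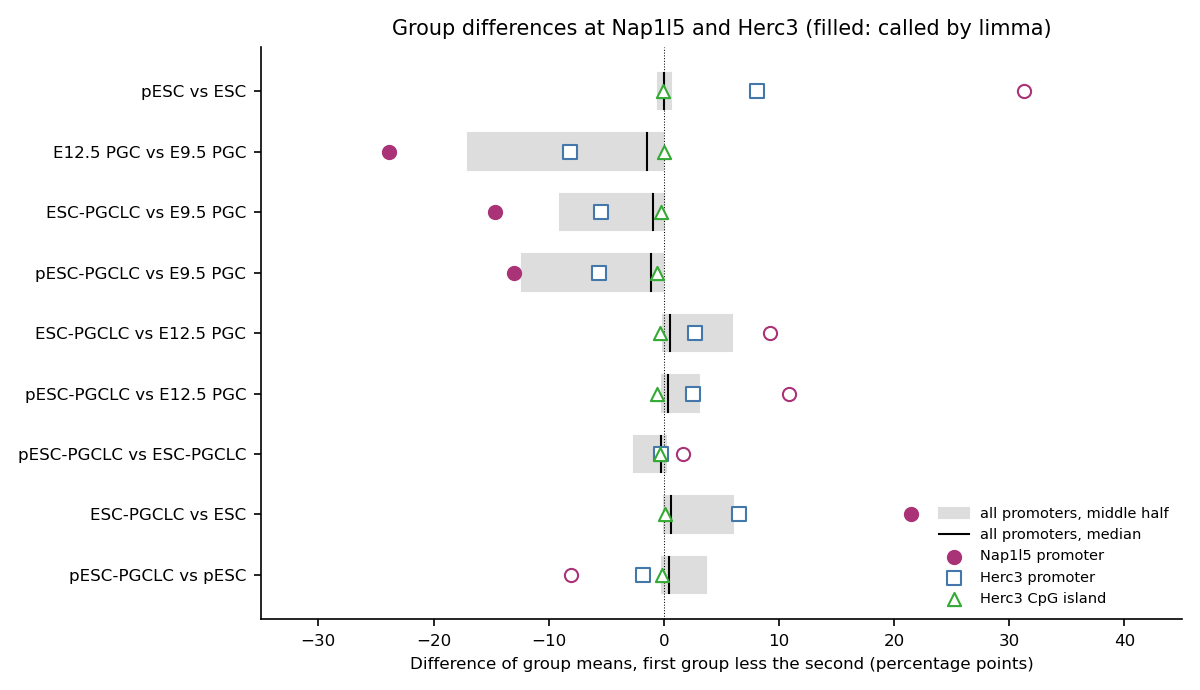
Difference of group means in percentage points (horizontal axis) for 9 comparisons (vertical axis) at the Nap1l5 promoter, Herc3 promoter and Herc3 island, filled where called; the grey box and line give the interquartile range and the median of all promoters. The Nap1l5 promoter lies outside the box in every comparison, from -23.9 to 31.3 points, and the Herc3 island stays within 1 point of 0.

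Other imprinted genes that lie within introns were set beside Nap1l5. Zrsr1, a retrogene in an intron of Commd1 that encodes a splicing factor, had 40.3 and 40.1% in pESCs against 1.65 and 1.91% in ESCs, and 51.2 and 50.1% in E9.5 PGCs. Its host Commd1, a regulator of copper and NF-kB, had 1.59 and 1.76% in ESCs and 31.4 and 28.3% in pESCs, a difference of 28.2 points in means beside 8.06 at Herc3. Neither the Zrsr1 nor the Commd1 difference was called, at a background of 0% of all features. The Commd1 row, like that of Herc3, may hold bases near the inner gene, and this was not tested. Mcts2, a retrogene within H13, had 2.71% in ESCs and 4.95% in pESCs but 60.2% in E9.5 PGCs (group means). Inpp5f, an inositol phosphatase gene with an imprinted start inside it, had 49.8% in pESCs against 29.3% in ESCs, and 37.7% in E12.5 PGCs against 58.8% in E9.5 PGCs. Trappc9, the host of Peg13, stayed between 2.55 and 3.37% in group means. The Nap1l5 level in ESCs, 24.3%, was thus above those of Zrsr1 and Mcts2. It was below those of Inpp5f, of Nnat within Blcap (35.1%) and of Peg13 (38.9%).

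Of the 8 other promoters of this list with levels in the stem cells, 7 were higher in pESCs. The median was 14.7 points, with a range from -0.25 to 38.4. None was called by limma, at a background of 0% of all features, and 5 had an unadjusted p under 0.05. All 7 with levels in the germ cell libraries were lower in E12.5 than in E9.5 PGCs and 6 were called, with a median of -21.1 points beside -1.49 for all promoters. From ESCs to ESC-PGCLCs 7 of 7 were higher and 5 called, with a median of 20.8 points. From pESCs to pESC-PGCLCs 4 of 7 were higher and 1 was called, Mcts2, at 32.0 points. The interaction was negative at 7 of 7 and called at 2, Zrsr1 (-34.9 points, adjusted p = 0.00721 by limma) and Commd1 (-25.1 points, 0.0173). The backgrounds over all features were 49.6% called lower for E12.5 against E9.5 PGCs and 13.7% called higher from ESCs to ESC-PGCLCs. In either direction they were 9.66% from pESCs to pESC-PGCLCs and 0.0365% for the interaction.

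**Figure D5:**
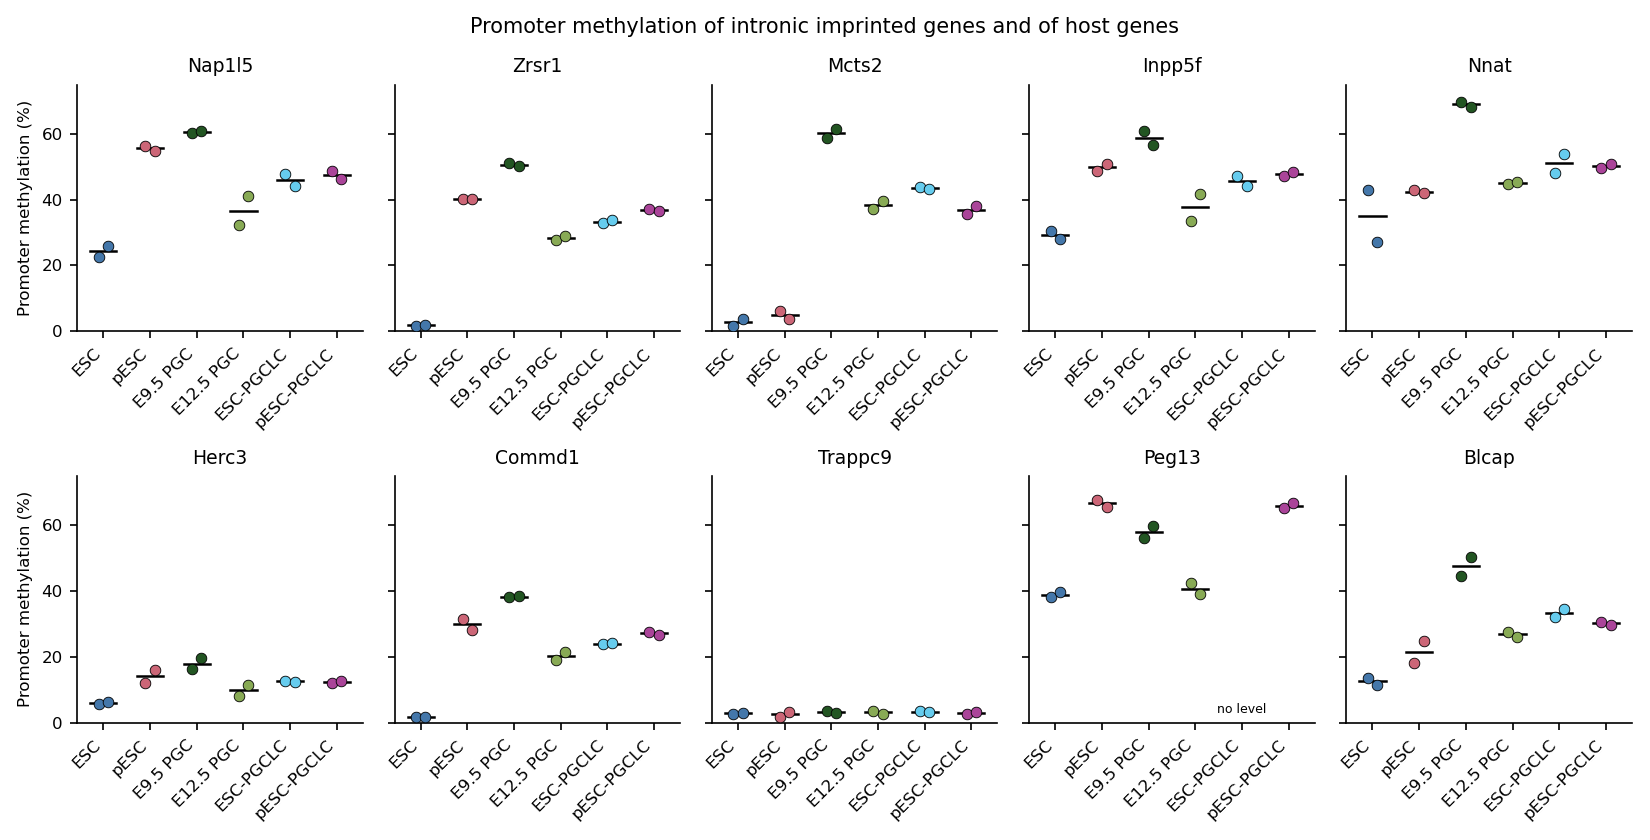
Promoter methylation in percent (vertical axis) of Nap1l5, Herc3 and other imprinted genes in introns and hosts, by group (horizontal axis); each point is 1 library and each bar the mean of 2. In pESCs Nap1l5 and Zrsr1 lie above ESCs by 31.3 and 38.4 points, and Mcts2 by 2.23 points.

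The wider list of genes with a methylation mark from the oocyte had 15 other promoters with levels in the stem cells. Of these, 14 were higher in pESCs, with a median of 20.5 points, and 10 had an unadjusted p under 0.05. None was called by limma, at a background of 0% of all features. The highest was Snrpn, a gene of the spliceosome, at 39.6% in ESCs and 83.0% in pESCs, and Mest, an alpha/beta hydrolase, had means of 6.74 and 46.2% without a call (adjusted p = 0.121 by limma). Nap1l5 lay above the median of its list. In E12.5 PGCs 13 of 14 were called lower than in E9.5 PGCs, at a background of 49.6% of all features. Their median was -21.5 points, and the -23.9 points of Nap1l5 were at the low end of their range of -23.9 to -7.01. From ESCs to ESC-PGCLCs 11 of 14 were called higher, at a background of 13.7%, with a median of 27.4 points, above the 21.5 of Nap1l5. From pESCs to pESC-PGCLCs 9 of 14 were higher, with 4 called higher and 1 called lower (Snrpn, -14.9 points), at a background of 9.66% in either direction. The median was 5.09 points, whereas the Nap1l5 difference was -8.07. The interaction was called at 4 of 14, at a background of 0.0365%, and its median was -13.1 points. All levels of this list are of promoter rows, and whether each row holds the region with the mark was not tested. Peg10 and Sgce, both in the list, lie side by side, with means of 36.8 and 37.4% in pESCs, and the spans of Gnas and Nespas overlap. The counts of this list are therefore not of independent regions.

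Among 5 genes with a mark from sperm, 4 were lower in pESCs, with a median over the 5 of -0.270 points. None was called by limma, at a background of 0% of all features, and none had an unadjusted p under 0.05. H19, a noncoding RNA, had 61.0% in ESCs and 46.2% in pESCs, and Meg3 had 26.7 and 19.8%. Dlk1, Rasgrf1 and Zdbf2 stayed under 3%, with Rasgrf1 at 1.76 and 1.73% and Zdbf2 at 1.64 and 1.37% in ESCs and pESCs. These are promoter rows, and whether they hold the region with the mark was not tested. A low value is therefore not evidence that the mark was absent.

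Other genes near Herc3 did not share the Nap1l5 levels. Of 22 other annotated genes within 500 kb, 3 had a promoter row. Abcg2, a drug efflux transporter, had group means of 1.66 to 2.17%, and Tigd2, a gene derived from a transposase, of 1.61 to 2.31%. Vmn1r30, a vomeronasal receptor, had 69.7 to 87.7% in the groups with a level and none in ESC-PGCLCs. The relatives Nap1l4 (1.43 to 1.95%), Herc2 (1.48 to 2.15%) and Herc4 (1.69 to 2.70%) were low in all groups. Herc1, a large ligase of the HERC family, had 18.2% in pESCs against 17.5% in ESCs, and 18.6% in E12.5 PGCs against 34.3% in E9.5 PGCs, and fell at E12.5 by 15.6 points, the only call in its family.

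By mean absolute difference over the 12 libraries, the promoters most like Nap1l5 among 18455 others were Gm43580 (2.25 points), Inpp5f (2.69), the X-linked antisense genes Gm15247 (3.01) and Gm15726 (3.96) and Ylpm1 (5.95). Gm43580 is a processed pseudogene at chr7:128688535-128688818, within Inpp5f, so the first and the second measure overlapping bases. It had 50.2% in pESCs against 26.2% in ESCs, and 37.7% in E12.5 PGCs against 58.8% in E9.5 PGCs, and like Nap1l5 it was lower in E12.5 PGC replicate 1 (33.6%) than in replicate 2 (41.9%). Gm15247 and Gm15726 lie next to each other and had 46.4 and 46.1% in pESCs. For Herc3 the nearest were Rasgrp2 (1.62 points), Esr2 (1.76), Yeats4 (1.83), Dot1l (1.84) and Atf7ip2 (1.87), whose levels in pESCs were 9.28 to 11.3% against 14.1% at Herc3.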

How the data were processed

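RRBS levels of 12 libraries were used, grouped by sample title. The deposited files gave per feature a fraction between 0 and 1, which the authors computed as methylated over all CG calls and corrected for non-conversion. According to the submitters' processing notes and the study's methods, the authors aligned reads with Bismark 0.16.3 and Bowtie2 to mm10. The coverage minimum and promoter definition are not given in the sources used here. Depth is unknown, so tests on read counts could not be run. Reads aligned to the same place were regarded by the authors as duplicates, which in RRBS can include separate molecules cut at the same site. Levels are printed as percent and differences in percentage points.

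The build was checked: 100.0% of 14559 islands lay within GRCm38 chromosomes and began with CG, with starts counted from 0 in the files and printed from 1, and shore coordinates printed as deposited. GENCODE M21 held 30041 of 30073 gene identifiers.

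Levels were transformed to log2((level + 0.01) / (1 - level + 0.01)) and tested with limma 3.58.1 (R 4.3.3) over features present in all libraries of the fit, and p-values were adjusted over all of these by Benjamini-Hochberg. The fits were of ESC and pESC (4 libraries), of PGCs and PGCLCs (8), and of ESC, pESC and PGCLCs (8), with 10 contrasts. The exact permutation test was two-sided. The limma step was tested on artificial levels made with known shifts.

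The members and gene lists were chosen with earlier results of these data known. Named genes were the members, neighbours within 500 kb, imprinted genes in introns, genes of germline marks, both gene families and, for each member, the 5 promoters of smallest mean absolute difference. List genes with no promoter row, among them Peg3, Kcnq1ot1, Airn and H13, could not be described. Alternatives were a replicate block, an offset of 0.1, untransformed levels, centring, 1 fit of 12 libraries, adjustment within feature class, a looser filter and leaving out each library. Python 3.11.15, pandas 2.3.3, pysam 0.24.0 and matplotlib 3.10.9 were used.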

Additional observations from a re-analysis of the deposited data

Results flagged for a closer look

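At all 4 Nap1l5 features induction went with opposite changes from the 2 cell types of origin: every ESC-PGCLC library was above every ESC library, and every pESC-PGCLC library below every pESC library. The change from pESC less the change from ESC was -29.6 points at the promoter, -28.9 at the CpG island, -28.6 at the exon and -29.3 at the island shore. The limma interaction test gave unadjusted p between 0.000349 and 0.000463 and adjusted p between 0.334 and 0.408, so the difference did not pass the threshold. The 4 features come from the same libraries, and the exon shares bases with both the island and the shore, so they are not 4 independent observations.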

How the results depend on the processing

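Among the alternatives other than leaving out a library, the count of called features stayed within 1.5 times in 60 of 70 cases. Of these, 1 (ESC-PGCLC vs ESC, centred) held 4 different features. Others had no call in either setting, including all 7 between PGCLCs and all 7 of the interaction. The Nap1l5 promoter kept its direction in 70 and its side of the threshold in 64. Only centring can change a difference in points here, since the other settings leave the group means of these features as they are. Thus 60 of the 70 kept directions were fixed beforehand, and the same holds for the signs of other features. Of the cases of other features, 587 stayed on their side of the threshold (559 with the sign kept, and 28 uncalled in both with the sign turned), 18 gained and 17 lost a call, and 8 with a call in either turned in sign. The limits are 2 libraries a group, levels without depth, and features that share bases. All values that follow are from limma. Centring shifts every difference of a comparison by the same number of points, so centred points are relative to the library medians. The cause of each other change was not tested. One fit of 12 libraries gave 4 called features for pESC vs ESC and 31.3 points at the Nap1l5 promoter, now called. Adjusting within feature class left 4 of 5 calls in each PGCLC comparison with E9.5 PGCs. Centring each library on its median gave 3, 1 and 2 called features against E9.5 PGCs (E12.5 PGC, ESC-PGCLC, pESC-PGCLC), all of Herc3, all higher and none shared with the original 5, 0 for ESC-PGCLC vs E12.5 PGC and 9 for pESC-PGCLC vs pESC. With it the Nap1l5 promoter calls were lost against E9.5 PGCs (-7.90, -4.59 and -0.969 points) and for ESC-PGCLC vs ESC (8.74), and 1 was gained for pESC-PGCLC vs pESC (-18.1). Centring, the only 1 of these alternatives that can turn a sign, did so at 36 of 90 differences, all of Herc3. The 8 with a call in either were, for E12.5 vs E9.5 PGCs, the Herc3 5' UTR (15.8) and intron (0.535), for pESC-PGCLC vs E9.5 PGC the Herc3 island (11.5) and shore (11.3), and for ESC-PGCLC vs ESC the Herc3 island (-12.6), 5' UTR (-12.3), shore (-12.6) and exon (-12.3). An offset of 0.1 and untransformed levels each gave 1 called feature for pESC-PGCLC vs E12.5 PGC (the Nap1l5 exon) and 1 for pESC-PGCLC vs pESC (the Nap1l5 shore).

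Leaving out 1 library at a time gave the following ranges of called features and of the Nap1l5 promoter difference. For pESC vs ESC they were 0 to 0 and 29.6 to 32.9 points. For E12.5 vs E9.5 PGCs they were 5 to 6 and -28.3 to -19.5. For ESC-PGCLC vs E9.5 PGC they were 1 to 5 and -16.5 to -12.9, and for pESC-PGCLC vs E9.5 PGC 2 to 5 and -14.2 to -11.9. For ESC-PGCLC vs E12.5 PGC they were 0 to 4 and 4.80 to 13.6, and for pESC-PGCLC vs E12.5 PGC 0 to 0 and 6.48 to 15.3. Between PGCLCs they were 0 to 0 and -0.148 to 3.502. On induction they were 3 to 4 and 19.7 to 23.3 from ESCs, 0 to 0 and -9.23 to -6.91 from pESCs, and 0 to 0 and -31.4 to -27.8 for the interaction. The sign turned in 26 of 684 cases of other features and in 1 of 76 of the Nap1l5 promoter (between PGCLCs), none called. The Herc3 exon was called without E9.5 PGC replicate 1, at -11.9, -12.5 and -12.9 points (E12.5 PGC, ESC-PGCLC and pESC-PGCLC vs E9.5 PGC), and without E12.5 PGC replicate 2, at -11.2 points.

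The labels give same-numbered libraries no shared batch, day or animal. Their deviations from group means correlated at 0.432 for ESC and pESC, and at -0.0573 to 0.139 for the other 14 pairs of groups. With a replicate block, the counts of called features and the side of the threshold of the Nap1l5 promoter did not change in any of 10 comparisons: 0 features were called for pESC vs ESC (promoter adjusted p = 0.405 by limma), 5 for E12.5 vs E9.5 PGCs (0.00287), and 0 for the interaction (0.550). The block gave 38 calls in the whole series between PGCLCs, against 130 without it.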
